A study of Homo sapiens with 4 samples.

Results

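Chromosome 20 carried 4142 of the 160601 distinct regions that were called as higher in H3K4me1 after knockdown of LSD2 in HepG2 cells, on the human genome build hg19. They were chosen by position alone, as every distinct combination of start and end that the authors' peak list places on this chromosome. The longest stretch without a peak, chr20:26281665-29422159, splits them into 1934 peaks on the short arm and 2208 peaks on the long arm. The short arm's peaks run from chr20:67334-67549 to chr20:26281466-26281664, and the long arm's from chr20:29422160-29422566 to chr20:62943392-62943563. No peak lay in the 3140 kb between the arms.

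HepG2 is a cell line derived from a human liver tumour. The study holds 4 samples in 4 groups of 1: H3K4me1 chromatin immunoprecipitation (ChIP) from cells given an siRNA against LSD2, input DNA from the same condition, H3K4me1 ChIP from cells given a control siRNA, and input DNA from that condition. The peak caller MACS compared the knockdown ChIP library with the control ChIP library, and the file header names neither input. All 4 groups are HepG2 cells grown in high-glucose medium, and siRNA lowers a transcript without altering the gene. The level of LSD2 itself was not measured in the list analysed. The 2 ChIP libraries carry run names with different dates, so condition and run cannot be told apart.

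LSD2, encoded by KDM1B, is a flavin-dependent demethylase that removes methyl groups from mono- and dimethylated lysine 4 of histone H3. Monomethylation of that lysine (H3K4me1) marks enhancers and the flanks of active promoters, and is usually laid down in broad zones of several nucleosomes around a regulatory element. In liver cells many such elements are bound by hepatocyte transcription factors. The gene table used here places the genes of several on chromosome 20: FOXA2, a pioneer factor that opens liver enhancers, is on the short arm, while HNF4A, the nuclear receptor that maintains hepatocyte identity, and CEBPB, a factor of the acute-phase response, are on the long arm. JAG1, a Notch ligand needed for bile duct formation, is also on the short arm. Which peaks lie at these genes was not analysed here, because no annotation of hg19 was used, and no peak sequences are shown for want of that genome.

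With 1 library per condition there was no test between conditions. The deposited columns give positions only, so every peak counts alike, the depth of the libraries is unknown, and the intervals below reflect counting error alone, as if each peak were called independently of the rest. A peak marks knockdown signal above control signal, and no list of regions higher in the control was analysed. HepG2 is known to carry extra copies of chromosome 20. Copy number was not measured here, and its part in the density of peaks cannot be told apart from that of H3K4me1.

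Both arms of chromosome 20 were dense in peaks. The short arm held 73.8 peaks per Mb (95% Poisson interval 70.5 to 77.1) and the long arm 65.9 (63.2 to 68.7), against a median of 54.7 over the 37 arms of the other autosomes, which ranged from 41.7 to 80.2. Only 4 of those 37 arms were denser than the short arm: the short arms of chromosomes 6, 10 and 2 and the long arm of chromosome 2. The nearest of them, the short arm of chromosome 2, had 74.0 peaks per Mb (72.3 to 75.8), which is within the interval of the chromosome 20 short arm. The long arm of chromosome 20 stood below 7 of the other arms, and its neighbours in the order, the long arms of chromosome 16 with 67.6 (65.2 to 70.04) and chromosome 10 with 64.7 (63.03 to 66.3), had intervals that overlap its own. Taken whole, chromosome 20 had 69.3 peaks per Mb, which was 1.29 times the median of 53.75 over the 21 other autosomes. Between those autosomes the standard deviation was 8.45 peaks per Mb, and 2 of them, chromosomes 2 and 6, were denser. Over the arms of the other autosomes pooled, which held 58.1 peaks per Mb, the ratio was lower, at 1.19 (exact 95% interval 1.16 to 1.23).

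**Figure D1:**
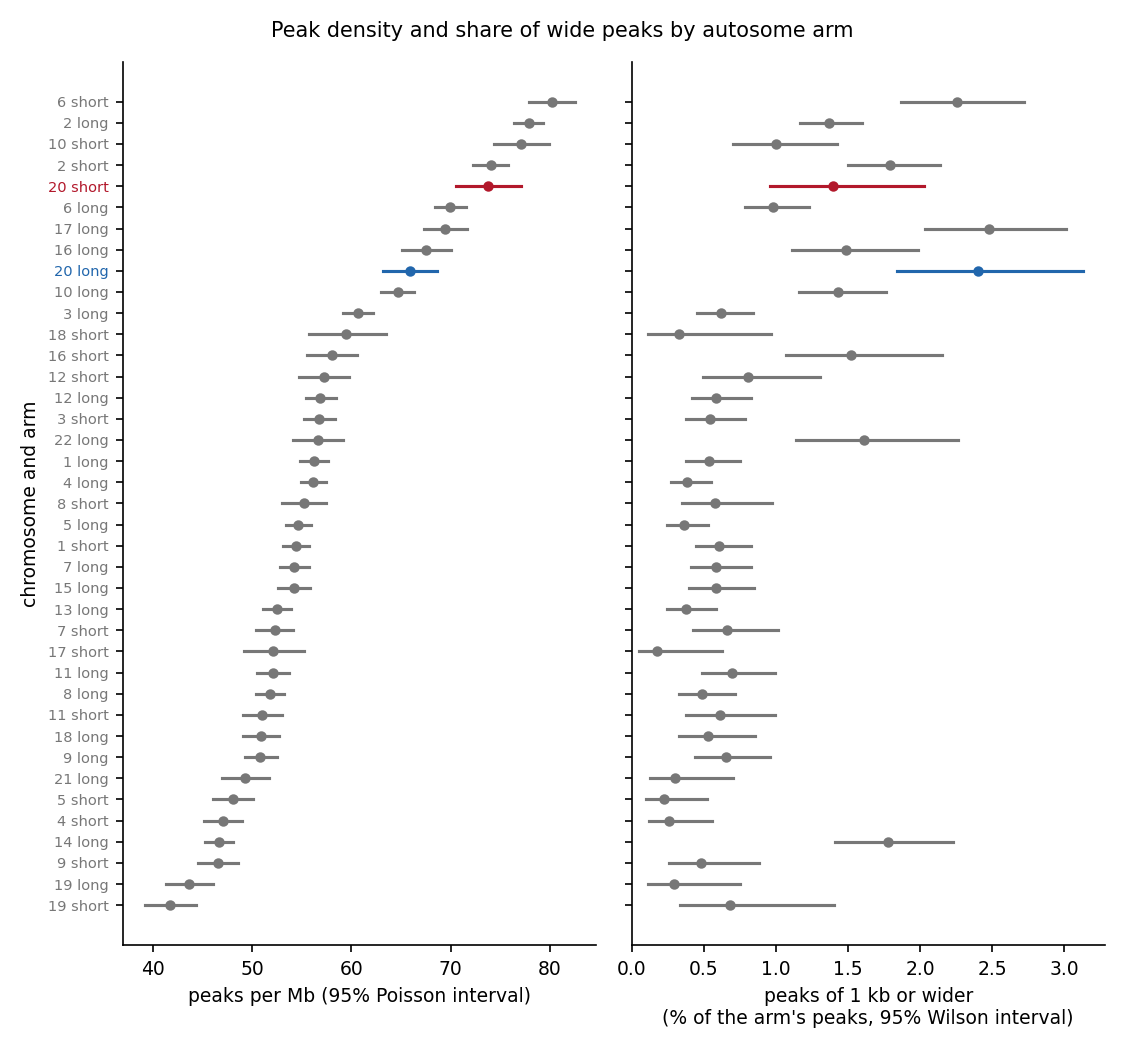
Each row is an arm of an autosome, ordered by density; the left axis gives peaks per Mb and the right axis the share of the arm's peaks that are 1 kb or wider, with points for the values and lines for 95% intervals of counting error. The short arm of chromosome 20 (red, 73.8 peaks per Mb) and the long arm (blue, 65.9) are among the denser arms, and the long arm's 2.40% of wide peaks is exceeded by the long arm of chromosome 17 alone.

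The short arm held more peaks for its length than the long arm, but the bases covered were nearly the same. Its density was 1.12 times that of the long arm (exact 95% interval 1.05 to 1.19). Covered sequence came to 25.7 kb per Mb on the short arm and 25.1 kb per Mb on the long arm, a ratio of 1.02, because the long arm's peaks were wider. Among the other 37 arms the median cover was 18.3 kb per Mb, and 5 of them exceeded the short arm, as 5 exceeded the long arm. Part of the difference in peak number came from the outer end of the long arm. Without its outer 3 Mb, the long arm had 69.0 peaks per Mb and the ratio was 1.07 (1.005 to 1.14). That end was left out after its low density had been seen, and nothing was left out of the short arm.

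Windows of 1 Mb filled evenly along the short arm. Its 25 full windows held 74.2 ± 10.8 peaks each (SD over windows), with a lowest count of 49, a median of 73 and a highest of 98. The 32 full windows of the long arm held 67.2 ± 13.75 peaks, with a lowest of 30, a median of 67.5 and a highest of 95. The 2590 full windows of the other arms held 58.3 ± 19.6 peaks and ranged from 2 to 121, with a median of 57 and quartiles of 43 and 72. On the short arm, 24 of 25 windows exceeded that median, 16 exceeded the upper quartile and none fell below the lower quartile. On the long arm, 26 of 32 exceeded the median, 11 exceeded the upper quartile and 2 fell below the lower quartile. The density of the short arm did not rest on a few crowded windows.

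The evenness can be given as the variance of the window counts over their mean, which is 1 for independent counts of 1 common mean. It was 1.58 on the short arm and 2.81 on the long arm, against a median of 4.83 over the other 37 arms. None of those 37 arms had a lower value than the short arm, and 4 had a lower value than the long arm. No interval was computed for these values, and that of the short arm rests on 25 windows, so its rank is a description. A short arm has fewer windows in which density can drift. Among the 12 other arms with 15 to 45 windows the lowest value was 1.88, on the short arm of chromosome 19, and the median was 4.32. The 3 other arms closest to the short arm in density had 2.41 (short arm of chromosome 2), 3.42 (short arm of chromosome 10) and 5.77 (long arm of chromosome 6). At a finer scale, 1 of 261 windows of 100 kb on the short arm held no peak (0.383%) and 6 of 334 on the long arm (1.80%), against 661 of 26279 on the other arms (2.52%). A denser arm has fewer empty windows by its density alone. The short arms of chromosomes 2 and 10 had 0.44% and 0.771%, and the denser short arm of chromosome 6 had 0.171%. Near the long arm in density, the long arms of chromosomes 16, 17 and 6 had lower shares than it, 0.687%, 1.075% and 1.01%. That of chromosome 10 had a higher one, 2.58%.

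**Figure D2:**
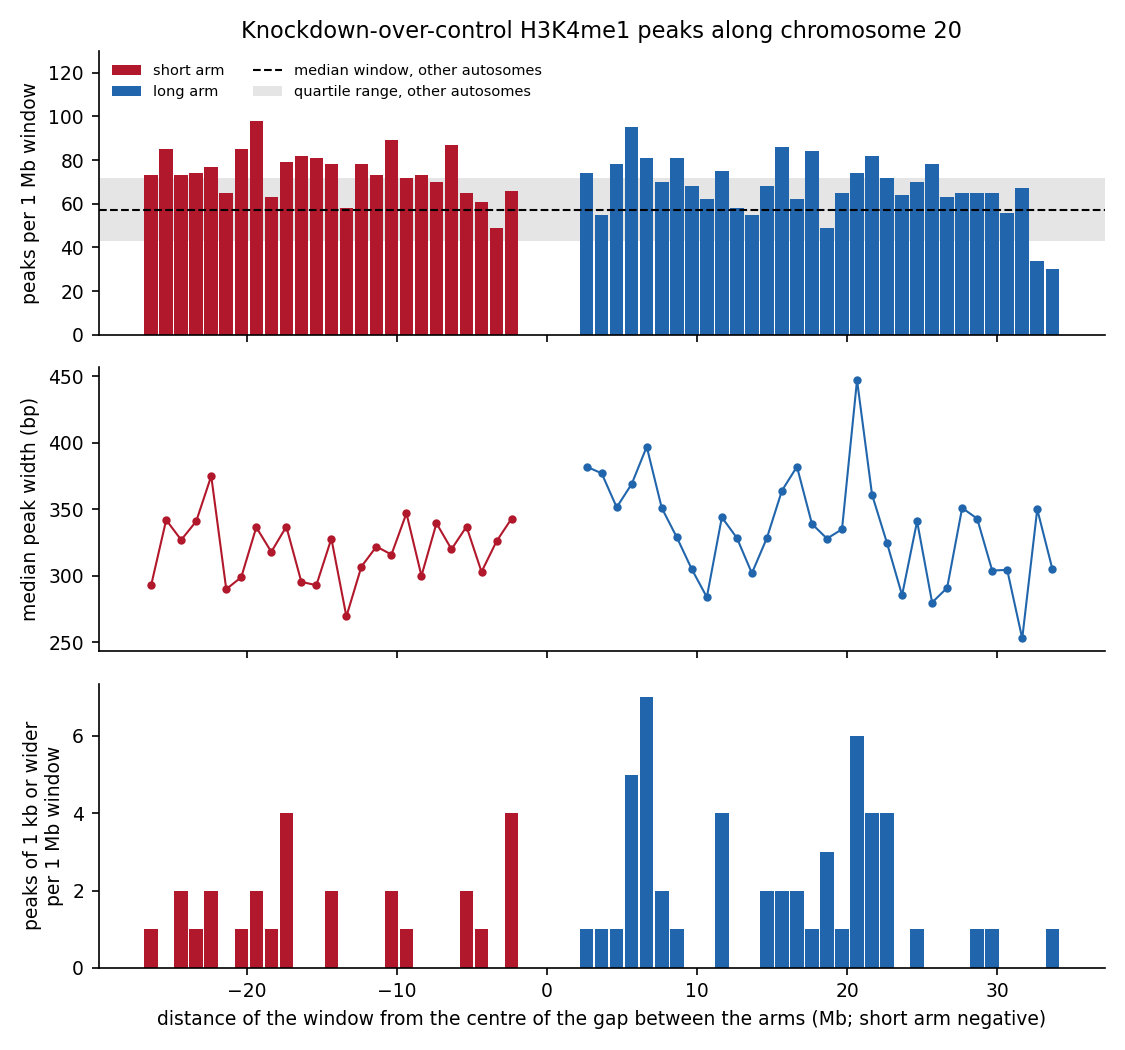
The 3 panels give, for each full 1 Mb window of chromosome 20, the number of peaks, the median peak width in bp and the number of peaks of 1 kb or wider, against the distance of the window from the centre of the gap between the arms in Mb, with the short arm at negative distances. The dashed line and grey band are the median (57) and quartiles (43 and 72) of windows on the other autosomes; nearly all windows of the short arm (red) stand above the line, and the 2 outermost full windows of the long arm (blue), with 34 and 30 peaks, stand below the band.

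The fullest window of the short arm was chr20:8000001-9000000, with 98 peaks (95% Poisson interval 79.6 to 119), a count exceeded by 2.70% of the windows on the other arms. It was followed by chr20:17000001-18000000 with 89, chr20:21000001-22000000 with 87, and chr20:2000001-3000000 and chr20:7000001-8000000 with 85 each. These 5 windows were spread along the arm, and only the first and the last of them adjoined each other. The emptiest full windows of the short arm were chr20:24000001-25000000 with 49 peaks (36.2 to 64.8), chr20:14000001-15000000 with 58 and chr20:23000001-24000000 with 61. Even the emptiest of them was above 33.7% of the windows on the other arms. In the window with 58 peaks the median width was 269.5 bp, the lowest of any full window on the short arm.

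On the long arm the fullest window was chr20:33000001-34000000, with 95 peaks (76.9 to 116), and 3.398% of the windows on the other arms held more. Next came chr20:43000001-44000000 with 86, chr20:45000001-46000000 with 84, chr20:49000001-50000000 with 82 and chr20:34000001-35000000 with 81. The fullest window also held the most covered sequence on the chromosome, 41.8 kb. The emptiest were chr20:61000001-62000000 with 30 peaks (20.2 to 42.8), chr20:60000001-61000000 with 34 and chr20:46000001-47000000 with 49. Adjacent to the last of these, at 45 to 46 Mb, stood a window among the 5 fullest, so counts changed sharply from one window to the next there. Over the arm the median step between adjacent windows was 11 peaks, and on the short arm it was 12.

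The outer end of the long arm was sparse. Its last 3 Mb held 102 peaks, or 34.0 per Mb (27.7 to 41.3), against 69.0 per Mb over the rest of the arm, a ratio of 0.493. The first 3 Mb of the short arm held 72.7 per Mb (63.3 to 83.0), against 73.9 over the rest, a ratio of 0.983. Lower density at the outer end was common: the ratio was below 1 on 18 of the 21 other long arms, with a median of 0.709, and on 12 of the 16 other short arms, with a median of 0.837. Among the other long arms 1 had a lower ratio than chromosome 20. Of the 3 longest stretches of the long arm without a peak, 2 lay in this outer end: chr20:61062187-61276434 (214 kb) and chr20:61579716-61767339 (188 kb). The remaining one, chr20:29647538-29859411 (212 kb), lay close to the gap between the arms. How well reads can be placed in these stretches was not tested.

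Beside the gap between the arms, the short arm was sparser than elsewhere. Its 3 Mb next to the gap held 59.3 peaks per Mb (50.9 to 68.7), against 75.6 over the rest of that arm, a ratio of 0.784. The 3 Mb of the long arm next to the gap held 58.0 (49.7 to 67.3), against 66.6 over the rest, a ratio of 0.870, and the value of the rest lies inside the interval. On the other arms the median of this ratio was 0.827 for short and 0.911 for long arms. The longest stretches without a peak on the short arm were chr20:24980078-25117945 (138 kb), chr20:5626964-5726321 (99.4 kb) and chr20:25758746-25858093 (99.3 kb), of which the first and the last lie within 3 Mb of the gap between the arms. Only the first is longer than 100 kb, while the long arm had 13 such stretches. Stretches over 100 kb made up 0.0517% of the distances between peaks on the short arm and 0.589% on the long arm. Both shares were below the 0.945% of the other arms.

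Divided into 3 stretches of equal length, the short arm was densest in its outer stretch, with 77.8 peaks per Mb (72.1 to 83.9), followed by 75.2 (69.5 to 81.2) in the middle and 68.3 (62.9 to 74.03) nearest the gap. These intervals overlap. The long arm ran the other way, with 71.2 (66.4 to 76.4) nearest the gap, 69.4 (64.6 to 74.4) in the middle and 57.0 (52.7 to 61.6) in the outer stretch, whose interval stays below those of the other stretches of the arm. The outer stretches of the 2 arms thus differed more from each other than did the arms as wholes.

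**Figure D3:**
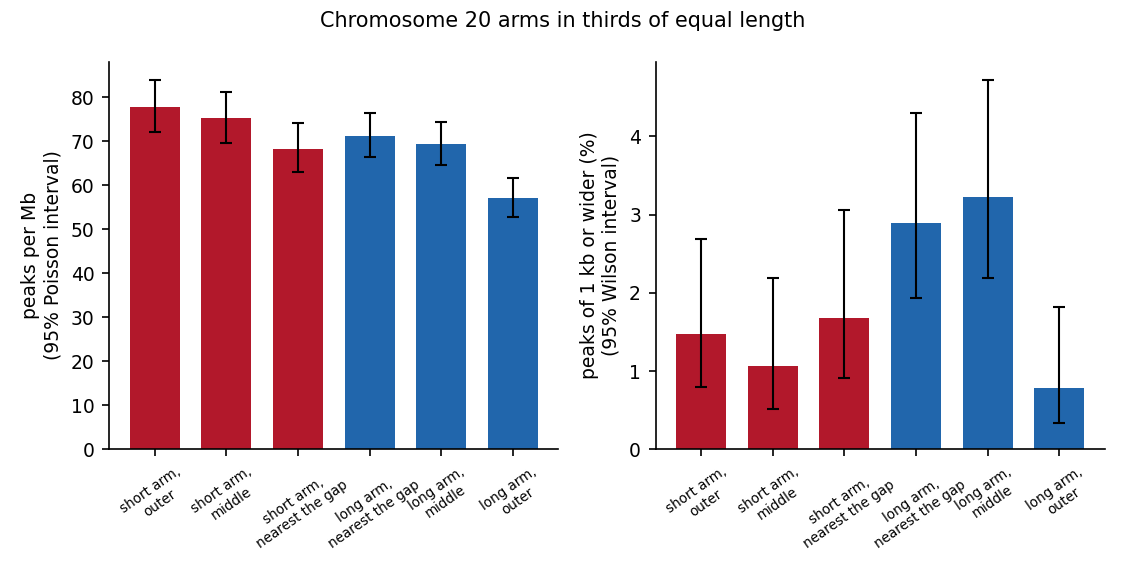
Bars give peaks per Mb (left) and the percentage of peaks that are 1 kb or wider (right) in 3 equal stretches of each arm of chromosome 20, from the outer end of the short arm (red) to the outer end of the long arm (blue), with 95% intervals of counting error. The outer stretch of the long arm was lowest in both, with 57.0 peaks per Mb and 0.785% wide peaks.

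Peaks on the long arm were wider. Median width was 321 bp on the short arm (quartiles 231 and 400 bp, 95% interval of the median 315 to 329) and 331 bp on the long arm (quartiles 241 and 422 bp, interval 323 to 340), against 316 bp over the other arms together. Of the other 37 arms, 9 had a higher median than the short arm and 3 a higher median than the long arm. The fullest 10 bp bin of widths was at 160 to 169 bp on both arms, as on the other arms. Near this narrow end the arms differed little: 15.7% of short-arm peaks (95% Wilson interval 14.2 to 17.4%) and 14.9% of long-arm peaks (13.4 to 16.4%) were under 200 bp, against 16.9% on the other arms.

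The difference between the arms was largest in the upper tail of width. A limit of 420 bp was read off the widths in these data, where the number of peaks per bin dropped. Of the short arm's peaks 19.5% (17.8 to 21.3%) and of the long arm's 25.5% (23.7 to 27.4%) were as wide or wider, against 17.9% on the other arms. At 1 kb, 27 of the short arm's peaks (1.40%, 0.961 to 2.02%) and 53 of the long arm's (2.40%, 1.84 to 3.13%) qualified, against 1357 on the other arms (0.887%, 0.842 to 0.936%). The median of the other 37 arms was 0.606%. Of these arms 8 exceeded the short arm, while the long arm of chromosome 17, at 2.475%, was the only one to exceed the long arm. The long arm of chromosome 17 is also close to the chromosome 20 long arm in density. Others close to it in density, the long arms of chromosomes 10, 16 and 6, had 1.43%, 1.48% and 0.983% of such wide peaks. The interval of chromosome 16 (1.11 to 1.99%) overlaps that of the chromosome 20 long arm. Those of chromosomes 10 (1.16 to 1.76%) and 6 (0.785 to 1.23%) lie below it. The intervals of the 2 arms of chromosome 20 overlap slightly at 1 kb and do not overlap at 420 bp.

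Wide peaks gathered in the inner and middle parts of the long arm. The stretch nearest the gap had 23 peaks of 1 kb or more (2.89%, 1.93 to 4.30%), the middle stretch 25 (3.23%, 2.19 to 4.72%) and the outer stretch 5 (0.785%, 0.336 to 1.82%). Median width was 348 bp nearest the gap, 339 bp in the middle and 309 bp in the outer stretch. The short arm showed no such order, with 10, 7 and 10 wide peaks from the gap outwards. Windows with 4 or more wide peaks made up 6 of the 32 on the long arm and 2 of the 25 on the short arm, against 81 of the 2590 on the other arms (3.13%). Those 6 windows of the long arm held 30 wide peaks.

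A pair of stretches, picked after their wide peaks had been seen, stood out on the long arm. From 33000001 to 35000000 there were 12 wide peaks among 176 (6.82%, 3.94 to 11.5%), with a median width of 384 bp. From 48000001 to 51000000 there were 14 among 228 (6.14%, 3.69 to 10.04%), with a median of 359 bp. The rest of the long arm had 27 among 1804 (1.497%, 1.03 to 2.17%), a share that is lower by construction once these stretches are left out. The window at 48 to 49 Mb had the highest median width of any full window of the chromosome, 447 bp, with 6 wide peaks, while the window at 34 to 35 Mb held the most wide peaks, 7. Because these stretches were chosen for their wide peaks, their shares and that of the rest of the arm are a description of where such peaks lie.

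The widest peak of the chromosome was chr20:33899023-33901159, 2137 bp, on the long arm. It stood alone, 10.5 kb after the peak before it and 25.8 kb before the next. The second, chr20:39665225-39667330 (2106 bp), was 3.58 kb from another wide peak of 1634 bp. The next on the long arm were chr20:34322047-34323901 (1855 bp), chr20:34770975-34772751 (1777 bp) and chr20:32954592-32956272 (1681 bp). Of these 5 peaks, 4 lay between 32 and 35 Mb.

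On the short arm the widest peak was chr20:23346508-23348293, at 1786 bp, only 0.186 kb before the next peak. It was followed by chr20:5989968-5991652 (1685 bp), chr20:25178555-25180183 (1629 bp), chr20:22390649-22392271 (1623 bp) and chr20:10583588-10585158 (1571 bp). The fourth was isolated, with 16.6 kb before it and 40.7 kb after it. The fifth was followed after 0.443 kb by a further wide peak of 1152 bp, the closest pair of wide peaks on the chromosome. Of these 5 peaks, 3 lay within 4 Mb of the gap between the arms.

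Whether wide peaks had a neighbour within 5 kb more or less often than narrower ones could not be told at these numbers. On the long arm 35 of 53 wide peaks did (66.0%, 52.6 to 77.3%), against 54.3% of its narrower peaks (52.2 to 56.4%). On the short arm 14 of 27 did (51.9%, 34.0 to 69.3%), against 59.9% of its narrower peaks (57.7 to 62.1%). On the other arms, where the number of wide peaks is larger, the shares were 62.9% (60.3 to 65.5%) and 52.4% (52.1 to 52.6%). The interval on the chromosome 20 long arm includes the first of these, and the number of wide peaks on the short arm is too small to tell the directions apart.

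Spacing followed density. Consecutive peaks lay a median of 8.11 kb apart on the short arm (quartiles 2.86 and 18.2 kb) and 9.12 kb on the long arm (quartiles 3.07 and 19.5 kb), against 10.0 kb on the other arms (quartiles 3.53 and 22.2 kb). Another peak lay within 5 kb of 59.8% of short-arm peaks (57.6 to 62.0%) and 54.6% of long-arm peaks (52.5 to 56.7%), against 52.5% on the other arms (52.2 to 52.7%). A denser arm has closer neighbours by its density alone, so arms of like density are the fitting comparison. The short arms of chromosomes 2 and 10 had 58.4% and 60.1%, within the interval of the chromosome 20 short arm, and the long arm of chromosome 6 had 57.05%, just below it. The long arms of chromosomes 10, 16 and 17 had 57.4%, 55.3% and 57.8%. The chromosome 20 long arm stood below all 3, and below the 57.05% of the long arm of chromosome 6. Only the value of chromosome 16 lay inside its interval. The long arm of chromosome 10 was the sparser in peaks, at 64.7 per Mb against 65.9, so these shares did not keep to the order of density.

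**Figure D4:**
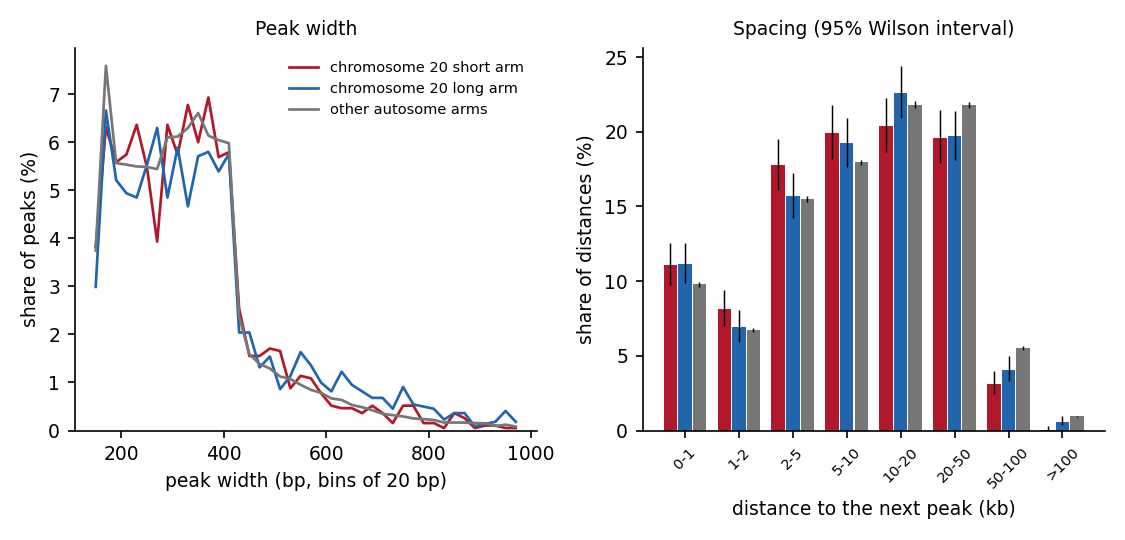
The left panel gives the share of peaks (%) by width in bp for the short arm (red) and long arm (blue) of chromosome 20 and the arms of the other autosomes (grey), and the right panel the share of distances to the next peak (%) in classes of kb, with 95% Wilson intervals. The long arm lies above the others over most widths between 540 and 820 bp, and distances of 50 to 100 kb made up 3.10% of those on the short arm and 4.08% on the long arm, against 5.52% on the other arms.

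Runs are stretches in which each peak lies within 5 kb of the next. Runs of 3 or more held 30.6% of the short arm's peaks and 26.4% of the long arm's, against 25.5% on the other arms together. The arms of like density had 31.2% (short arm of chromosome 2), 32.6% (short arm of chromosome 10), 29.4% (long arm of chromosome 6) and 32.2% (long arm of chromosome 2), around or above the value of the short arm. The long arms of chromosomes 10, 16, 17 and 6 had 29.1%, 27.3%, 29.6% and 29.4%, all above that of the chromosome 20 long arm. On the short arm most of these were runs of 3 or 4 peaks, 133 in number, and 27 had 5 or more. The long arm had 115 runs of 3 or 4 and 34 of 5 or more. Per Mb, runs of 3 or 4 numbered 5.07 on the short arm and 3.43 on the long arm, and runs of 5 or more 1.03 and 1.01. Runs of 5 or more held 8.07% of the peaks on the short arm and 9.56% on the long arm, against 6.05% on the other arms. For runs of this size, arms of like density were not compared, so the part of density in these shares was not tested. The longest run of the chromosome was on the long arm, chr20:30970259-31007411, with 14 peaks of 172 to 815 bp in 37.2 kb. No run on the other autosomes' arms had more than 14 peaks. The longest run of the short arm, chr20:11247326-11257673, held 9 peaks of 211 to 575 bp in 10.3 kb. It was thus the tighter, though shorter, of the 2 runs.

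The fullest windows of 100 kb, added after the data were seen, lay away from these runs. On the long arm chr20:43600001-43700000 held 24 peaks, a number reached by 0.0152% of such windows on the other arms, where the highest count was 27. On the short arm chr20:20000001-20100000 held 21, a number reached by 0.0913% of them. The median window of 100 kb held 7 peaks on the short arm and 6 on the long arm, against 5 on the other arms.

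Across the full 1 Mb windows, peak number and median width were related weakly at most. Spearman's rho was 0.38 over the 32 windows of the long arm (Pearson's r 0.29) and 0.06 over the 25 of the short arm (r 0.15). Windows of an arm share both libraries and neighbour each other, so these values are a description. Median width per window ranged from 269.5 to 375 bp on the short arm and from 253 to 447 bp on the long arm, and the narrowest window, at 59 to 60 Mb, held 67 peaks.

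The number of peaks did not follow the number of genes between the arms. The gene table, which describes GRCh38.p14 and was used only for names and order, lists 180 protein-coding genes on the short arm and 357 on the long arm, divided at the longest stretch of the chromosome without one. That gives 10.7 peaks per gene on the short arm and 6.18 on the long arm. For the whole chromosome the figure was 7.71, against a median of 7.61 over the 21 other autosomes, which ranged from 1.65 to 14.9, with 10 of them higher. The table counts provisional genes too, so these ratios depend on it.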

How the data were processed

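The authors' deposited list gives the chromosome, start and end of each peak and no height, fold or p-value. Per the file header, MACS was run on trimmed reads without duplicates, with an enrichment factor of 32, a p-value limit of 1e-05, a fragment length of 128 bp and an effective genome of 2700000000 bp. The submitters' processing notes name BWA and hg19. Their versions and that of MACS are not stated in those notes or the header. Removal of duplicates limits how far reads stack.

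Of 180505 rows, 160601 were distinct. Each counted as 1 peak, with positions from 1. Arms were split at the longest stretch without a peak, and chromosomes 13, 14, 15, 21 and 22 counted as a long arm. Density was peaks over the length from first to last peak without gaps over 1 Mb. Windows were filled by peak midpoints and counted as full where they lay inside that length. Intervals (95%) are exact Poisson, exact binomial for the ratio of 2 densities, Wilson for shares and order statistics for medians. They cover counting error only. The regions named are, per arm, the 5 fullest and 3 emptiest windows, the 5 widest peaks, the 3 longest stretches without a peak, the longest run, the first and last peak, and for the chromosome the 3 peaks with most rows. Regions outside this rule are said to be chosen after their values were seen. The members and measures were chosen with earlier results of these data known. The steps were tested on simulated peaks of known density. Python 3.11.15, numpy 2.4.6, pandas 2.3.3 and scipy 1.17.1 were used.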

Additional observations from a re-analysis of the deposited data

Results flagged for a closer look

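The deposited rows hold a signal that no comparison above uses: some peaks are written more than once with the same start and end. On the short arm 129 of 1934 peaks were, or 6.67% (95% Wilson interval 5.64 to 7.87%), and on the long arm 247 of 2208, or 11.2% (9.94 to 12.6%), against 10.9% (10.7 to 11.0%) on the other autosomes. All 37 arms of the other autosomes had a higher share than the short arm, and 17 had a higher share than the long arm. The lowest of them, the long arm of chromosome 13 with 6.92% and the short arm of chromosome 10 with 6.99%, lie inside the short arm's interval. The short arm of chromosome 10 is also close to it in density. Others close in density, the short arm of chromosome 2 and the long arm of chromosome 6, had 9.13% and 9.93%, above that interval. The peaks with the most rows were chr20:37055708-37056213 with 5, chr20:2630667-2631124 with 4 and chr20:34239989-34240623 with 4. Peaks written more than once had a median width of 322 bp on the short arm, against 321 bp for those written once, and of 354 bp on the long arm, against 329 bp. What the repeats stand for is not given in the sources used here.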

How the results depend on the processing

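No alternative reversed the direction of the 2 density ratios, chromosome 20 over the other autosomes and short over long arm. The other measures had no direction set that could be reversed. Chromosome 20 over the median of the other autosomes was 1.40 for the wider peaks alone (316 bp or more, the median of the autosomes), 1.43 by covered bases and 1.35 by the median window. For the short and the long arm, density was 65.6 and 58.5 per Mb with peaks within 1 kb merged, 79.1 and 74.5 with every deposited row counted, 38.4 and 35.65 for the wider peaks, and 25.7 and 25.1 as kb covered per Mb. Without its outer 3 Mb, an alternative chosen after seeing the data, the long arm had 69.0 per Mb. The ratio of short to long arm was 1.02 by covered bases and kept within its interval under the rest. Under these counts 3 to 5 of the 37 other arms were denser than the short arm, and 5 to 7 were denser than the long arm. Merging raised the median width to 336 bp on the short and 351 bp on the long arm. Neighbours were found for 20.6% and 20.8% of peaks within 1 kb, so the short arm's higher share at 5 kb was not seen at that distance. Within 20 kb the shares were 93.7% and 93.2%. For the wider peaks within 5 kb they were 40.5% and 40.1%, so the 2 arms nearly met there too. The shifts in level come by construction, while the smaller difference between the arms was not examined further. At 1.5 kb or wider there were 0.259% and 0.317% of peaks, at or above the upper quartile of width (396 bp) 26.5% and 32.8%, and with merging 8.14% and 9.43% at 1 kb or wider. At 1.5 kb the 2 arms nearly met, and 3 other arms exceeded the long arm. In evenness, no other arm was below the short arm with windows of 0.5 or 2 Mb, sizes also chosen after seeing the data, while 9 were below the long arm with 2 Mb windows. The causes were not tested. Leaving out a library was not possible. No paired analysis was possible because the groups share no replicates, with a single library in each. Unknown depth limits every density: a window with few peaks may be unchanged, lower or thinly covered.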
